A study of Schizosaccharomyces pombe with 16 samples.

Results

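Effector genes of the general stress response of fission yeast are described here: 10 genes, each measured by 1 probe set, of 4999 probe sets on the array. They were chosen by gene name, from the platform's probe-to-gene annotation: tps1, ntp1, zym1, cta3, lsd90, gpd1, ctt1, hsp9, gpx1 and trx2. All 10 were found. No value entered that rule, but the names were put together with earlier results of these data known, in particular the differences of tps1, ntp1, zym1 and lsd90 between fcp1-452 and wild type at 37 °C. The comparisons of the mutant at 37 °C with nitrogen are therefore given as descriptions, without p-values. Counts of members past the threshold are printed there beside the share of all probe sets, and nothing is read from them.

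The arrays measured polyadenylated RNA of Schizosaccharomyces pombe in a study of cellular quiescence, the resting state entered when nitrogen runs out. Wild type was strain L972. The mutant strain bears fcp1-452, which the series' design text calls a temperature-sensitive mutant. Its gene, fcp1, encodes a phosphatase of the RNA polymerase II tail. Each strain was kept in the synthetic medium EMM2 with nitrogen or in EMM2 without it, at 26 or 37 °C, which gave 8 groups. The source names call wild type with nitrogen logarithmically growing at both temperatures, and the mutant only at 26 °C. The growth protocol, which is the same for every array, names log phase. A difference in growth between the strains at 37 °C was not tested. How long cells stayed at 37 °C or without nitrogen is not stated in the labels.

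In fission yeast the mitogen-activated kinase Sty1 and the transcription factor Atf1 raise a shared set of genes under heat, oxidative, osmotic and nutrient stress. The products of that set act directly on the damage. Trehalose protects proteins and membranes, glycerol balances osmotic pressure, metallothionein binds metal ions, and catalase, peroxidases and thioredoxins remove peroxides or restore thiols. Entry into quiescence without nitrogen is also accompanied by stress gene expression and by gain of stress tolerance.

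Of the 16 arrays, 4 in set 1 were near duplicates of the replicate 1 arrays of set 2 (r = 0.975 to 0.990 across probe sets, against 0.652 to 0.765 with replicate 2). Each such pair was averaged and counted as 1 sample. This left 12 samples: 8 with nitrogen, as pairs from 4 groups, and 4 without it, each the only sample of its group. The labels do not tell whether replicates were separate cultures, so the spread behind each p-value may be technical. Values are log2 ratios to the probe set's own median over the 8 arrays of set 2, so levels cannot be compared between genes. Differences are given ± SE from limma, with adjusted p-values by Benjamini-Hochberg over all 4999 probe sets and a call at an adjusted p under 0.05. The fcp1 transcript itself lay between -0.42 and 0.17 in the 8 samples with nitrogen and between 0.37 and 0.72 in the 4 without.

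The members differed widely in how well they repeated. The SE of a difference between groups of 2 was 0.10 for cta3, 0.12 for trx2, 0.19 for gpd1 and 0.21 for gpx1, against a median of 0.14 over all probe sets. For tps1, ctt1, hsp9, ntp1, lsd90 and zym1 it ran from 0.30 to 0.56, more than for 94.0% to 99.5% of probe sets. Over the 10 members, replicates differed most in wild type at 37 °C, where their median absolute difference was 0.56, against 0.30 over all probe sets. There, 7 of 10 members were lower in replicate 1 than in replicate 2. Over all probe sets, replicates differed most in fcp1-452 at 37 °C, with a median of 0.39, against 0.40 over the members.

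**Figure D1:**
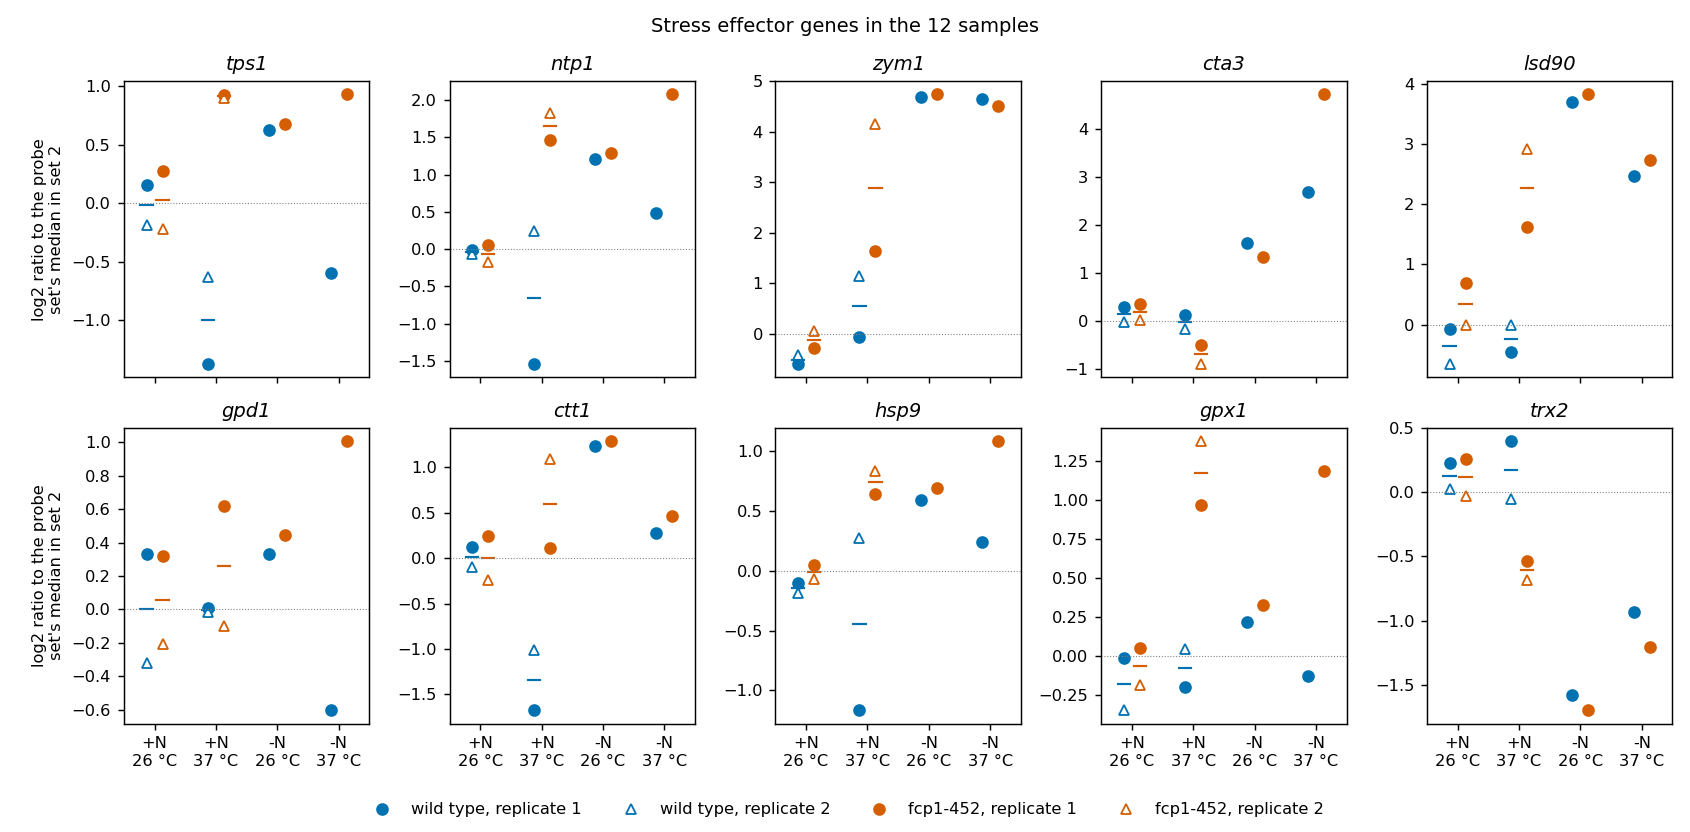
Log2 ratio of each of the 10 genes in the 12 samples (vertical axes, scaled for each gene), by nitrogen and temperature (horizontal axes). Circles are replicate 1, open triangles replicate 2 and short lines the mean of 2 samples. In zym1 and lsd90 the 4 samples without nitrogen and both mutant samples at 37 °C with nitrogen lie above the other samples, and in trx2 the samples without nitrogen lie below all others.

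The trehalose genes separated the strains at 37 °C. The gene tps1 encodes trehalose-6-phosphate synthase, which makes the precursor of trehalose. With nitrogen its log2 values in replicates 1 and 2 were 0.15 and -0.19 in wild type at 26 °C, 0.28 and -0.22 in fcp1-452 at 26 °C, -1.37 and -0.63 in wild type at 37 °C, and 0.93 and 0.90 in fcp1-452 at 37 °C. Without nitrogen they were 0.62 in wild type and 0.68 in fcp1-452 at 26 °C, and -0.60 in wild type and 0.93 in fcp1-452 at 37 °C. Wild type at 37 °C was thus the lowest group with nitrogen and also the lowest single sample without it, and the mutant at 37 °C was the highest in both media.

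The neutral trehalase gene ntp1, whose product breaks trehalose down, moved with tps1. Its log2 values with nitrogen were -0.01 and -0.06 in wild type and 0.05 and -0.17 in fcp1-452 at 26 °C, then -1.54 and 0.24 in wild type and 1.47 and 1.83 in fcp1-452 at 37 °C. Without nitrogen it stood at 1.21 in wild type and 1.29 in fcp1-452 at 26 °C, and at 0.48 and 2.07 at 37 °C. The wild-type replicates at 37 °C fell on opposite sides of those at 26 °C, while both mutant samples at 37 °C lay above every other sample with nitrogen. The glycerol-3-phosphate dehydrogenase gene gpd1, which supplies glycerol under osmotic stress, stayed between -0.32 and 0.62 in the 8 samples with nitrogen, where all 4 groups overlapped. Without nitrogen gpd1 ran from -0.60 in wild type at 37 °C to 1.01 in fcp1-452 at 37 °C.

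The metallothionein gene zym1, whose small product binds zinc and other metal ions, was far higher in every starved sample than in wild type with nitrogen. With nitrogen its log2 values were -0.60 and -0.43 in wild type and -0.28 and 0.05 in fcp1-452 at 26 °C, then -0.06 and 1.15 in wild type and 1.64 and 4.15 in fcp1-452 at 37 °C. Without nitrogen all 4 samples lay together, at 4.69, 4.74, 4.66 and 4.51 for wild type at 26 °C, fcp1-452 at 26 °C, wild type at 37 °C and fcp1-452 at 37 °C. The mutant sample of replicate 2 at 37 °C came close to that level while nitrogen was present, and that of replicate 1 did not.

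The gene cta3, which encodes a P-type ATPase that transports cations, followed another course. With nitrogen it stood at 0.30 and -0.02 in wild type and 0.36 and 0.02 in fcp1-452 at 26 °C, at 0.13 and -0.16 in wild type at 37 °C, and at -0.49 and -0.88 in fcp1-452 at 37 °C. Without nitrogen it stood at 1.63 in wild type and 1.33 in fcp1-452 at 26 °C, at 2.69 in wild type at 37 °C and at 4.71 in fcp1-452 at 37 °C. The mutant at 37 °C was thus the lowest group with nitrogen and the highest sample without it.

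Among the redox genes, ctt1 encodes catalase, which removes hydrogen peroxide. Its log2 values with nitrogen were 0.13 and -0.10 in wild type and 0.24 and -0.24 in fcp1-452 at 26 °C, then -1.67 and -1.01 in wild type and 0.11 and 1.09 in fcp1-452 at 37 °C. Without nitrogen they were 1.23 and 1.29 at 26 °C, and 0.28 and 0.46 at 37 °C, in wild type and fcp1-452 in turn. Both wild-type samples at 37 °C with nitrogen lay below the other 10 samples. The glutathione peroxidase gene gpx1 was at 0.97 and 1.38 in fcp1-452 at 37 °C with nitrogen and at 1.19 without. Its other samples lay between -0.35 and 0.33, so that the mutant at 37 °C stood apart in both media.

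The mitochondrial thioredoxin gene trx2 ran the other way from most of the list. With nitrogen it was at 0.23 and 0.03 in wild type and 0.26 and -0.03 in fcp1-452 at 26 °C, at 0.40 and -0.05 in wild type at 37 °C, and at -0.54 and -0.68 in fcp1-452 at 37 °C. Without nitrogen it stood at -1.58 and -1.70 at 26 °C, and at -0.94 and -1.21 at 37 °C, in wild type and fcp1-452 in turn. In the annotation of RefSeq assembly ASM294v3 the gene trx2 overlaps srb11, tps1 overlaps dbl4 and gpx1 overlaps gem7. The place of the probes within these genes is not known here, so a share of a neighbour's RNA in those 3 probe sets was not tested.

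Of the other stress-induced genes, hsp9 encodes a small heat shock protein related to Hsp12 of budding yeast. Its values at 37 °C with nitrogen were -1.17 and 0.28 in wild type and 0.65 and 0.83 in fcp1-452, against -0.18 to 0.05 in the 4 samples at 26 °C. Without nitrogen hsp9 stood at 0.59 and 0.69 at 26 °C, and at 0.24 and 1.08 at 37 °C, in wild type and fcp1-452 in turn. The gene lsd90 was at -0.07 and -0.65 in wild type and 0.68 and 0.00 in fcp1-452 at 26 °C with nitrogen, at -0.46 and 0.00 in wild type at 37 °C, and at 1.62 and 2.92 in fcp1-452 at 37 °C. Without nitrogen lsd90 stood at 3.69 and 3.82 at 26 °C, and at 2.47 and 2.72 at 37 °C, in wild type and fcp1-452 in turn. The strains lay close together in each of the starved pairs of lsd90, and far apart at 37 °C with nitrogen.

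The comparison of 37 with 26 °C in wild type with nitrogen asked what the warmer temperature did to growing cells. None of the 10 members was called by limma in either direction, where 0.54% of all probe sets were called, and 2 members had an unadjusted p under 0.05. The largest fitted differences were -1.36 ± 0.37 for ctt1 (adjusted p = 0.131), 1.06 ± 0.56 for zym1 (adjusted p = 0.351) and -0.99 ± 0.30 for tps1 (adjusted p = 0.152). The member median was -0.08, against 0.01 over all probe sets. Within replicates, ctt1 stood at -1.80 and -0.91, tps1 at -1.53 and -0.44 and zym1 at 0.54 and 1.58, each with 1 sign. The replicates had opposite signs for ntp1 (-1.53 and 0.30), hsp9 (-1.07 and 0.46), lsd90 (-0.39 and 0.65), gpd1 (-0.32 and 0.30), gpx1 (-0.18 and 0.40) and trx2 (0.17 and -0.08). Both tps1 and ctt1 were called lower when all 16 arrays entered with a set term, a fit that counts the duplicate arrays separately. After quantile normalization zym1 alone was called higher, at 2.02 ± 0.42.

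**Figure D2:**
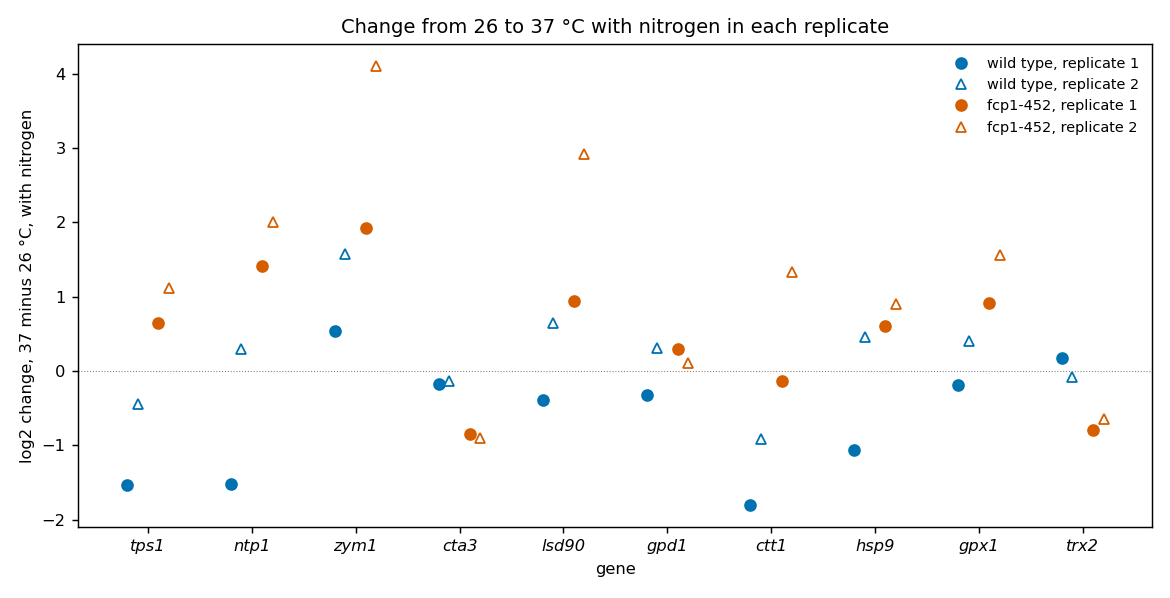
Log2 change from 26 to 37 °C with nitrogen for each gene (horizontal axis), in wild type and fcp1-452, for each replicate (circles replicate 1, open triangles replicate 2). In wild type the replicates of ntp1, hsp9 and lsd90, among others, lie on either side of 0. In fcp1-452 both replicates of tps1, ntp1, zym1, lsd90, gpd1, hsp9 and gpx1 lie above 0 and both of cta3 and trx2 below.

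In fcp1-452 with nitrogen, the fitted difference between 37 and 26 °C was above 0 for 8 of the 10 members and below 0 for cta3 and trx2. The difference from 26 °C was 3.01 ± 0.56 for zym1, 1.93 ± 0.49 for lsd90, 1.71 ± 0.47 for ntp1 and 1.24 ± 0.21 for gpx1. It was -0.88 ± 0.10 for cta3 and -0.72 ± 0.12 for trx2. These 4 higher and 2 lower members had an adjusted p under 0.05, as had 17.8% of all probe sets higher and 22.1% lower. The names were put together with these values known, so that nothing is read from this count. The other 4 stood at 0.89 ± 0.30 for tps1, 0.75 ± 0.39 for hsp9, 0.60 ± 0.37 for ctt1 and 0.20 ± 0.19 for gpd1. In replicates 1 and 2 the change was 1.92 and 4.10 for zym1, 0.94 and 2.92 for lsd90, and -0.13 and 1.33 for ctt1, so that the size repeated poorly for these 3. It was -0.85 and -0.91 for cta3. The same count held cta3 alone without the fcp1-452 sample of replicate 2 at 26 °C, gpx1 alone without the replicate block, and zym1, cta3 and gpx1 after quantile normalization.

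With nitrogen at 26 °C, where the source names call both strains growing, none of the 10 members was called by limma, as none of the 4999 probe sets was (0%), and 0 members had an unadjusted p under 0.05. The fitted differences of fcp1-452 from wild type lay between -0.02 for ntp1 and 0.70 ± 0.49 for lsd90. For lsd90 the mutant was higher by 0.76 and 0.65 in the 2 replicates.

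At 37 °C with nitrogen the strains differed in the values that were known when the names were put together, so that what follows is a description. The differences of fcp1-452 from wild type were 2.50 ± 0.49 for lsd90, 2.35 ± 0.56 for zym1, 2.30 ± 0.47 for ntp1, 1.94 ± 0.37 for ctt1, 1.92 ± 0.30 for tps1 and 1.25 ± 0.21 for gpx1. They were 1.18 ± 0.39 for hsp9 and 0.26 ± 0.19 for gpd1, and below 0 for trx2 (-0.78 ± 0.12) and cta3 (-0.67 ± 0.10). Of the 10, 6 higher and 2 lower had an adjusted p under 0.05, beside 14.7% and 19.2% of all probe sets, and nothing is read from this count. In each replicate the mutant was higher for tps1 (2.30 and 1.53), ntp1 (3.01 and 1.59), zym1 (1.70 and 3.0), lsd90 (2.08 and 2.92), ctt1 (1.79 and 2.10), hsp9 (1.81 and 0.55) and gpx1 (1.17 and 1.33). For gpd1 the sign turned between replicates (0.61 and -0.08). Part of the strain difference of tps1 and ctt1 lay in wild type, whose 2 samples at 37 °C were below all 4 samples at 26 °C for both genes. For zym1, lsd90, ntp1 and gpx1 the mutant samples at 37 °C were above all 4 samples at 26 °C. Without the replicate 1 sample of wild type at 37 °C, the sample with the lowest values of tps1, ntp1, ctt1 and hsp9, the count was 3 instead of 8 and held tps1, ntp1 and cta3. It was 5 without replicate 2 of that group and 4 without the replicate block.

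**Figure D3:**
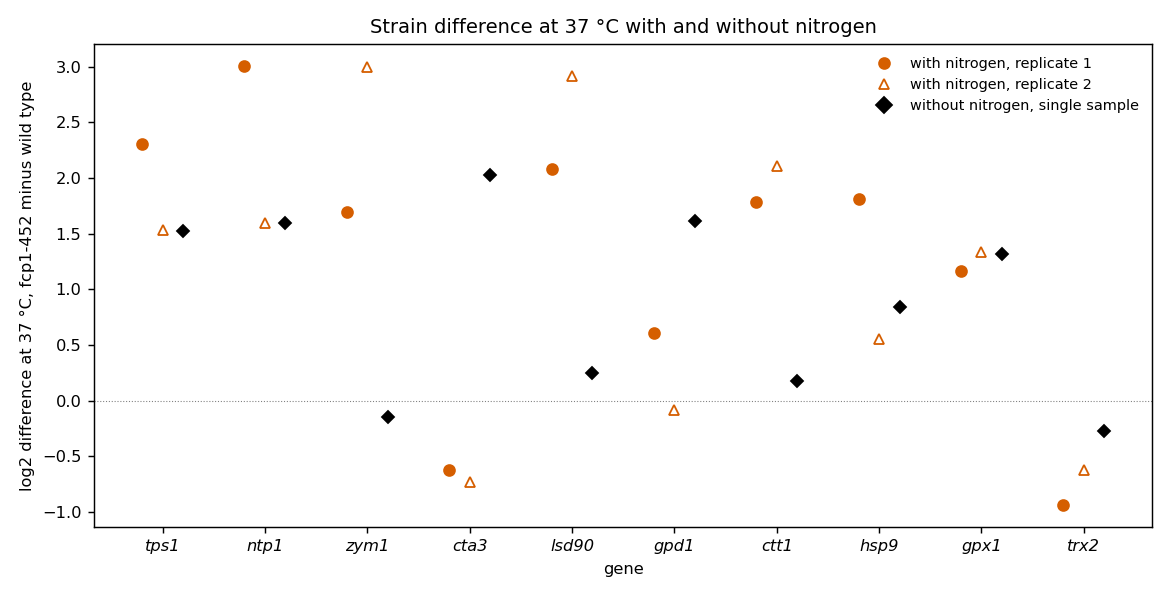
Log2 difference at 37 °C, fcp1-452 minus wild type, for each gene (horizontal axis), with nitrogen in replicate 1 (circles) and replicate 2 (open triangles) and without nitrogen in single samples (diamonds). The difference for tps1, ntp1 and gpx1 is 1.17 or more in both media, that for zym1, lsd90 and ctt1 is 0.25 or less in size without nitrogen, and that for cta3 turns from below 0 to 2.02.

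The difference between the strains in their response to 37 °C with nitrogen rests on the same mutant samples and is likewise a description. The response of fcp1-452 was more positive by 2.32 ± 0.67 for ntp1, 1.95 ± 0.52 for ctt1, 1.95 ± 0.79 for zym1, 1.87 ± 0.42 for tps1, 1.80 ± 0.69 for lsd90, 1.13 ± 0.29 for gpx1 and 1.05 ± 0.55 for hsp9. It was more negative for trx2 (-0.77 ± 0.16) and cta3 (-0.72 ± 0.14), and the value for gpd1 was 0.21 ± 0.26. Of these, tps1, cta3 and trx2 had an adjusted p under 0.05, beside 4.12% of all probe sets more positive and 7.68% more negative, and nothing is read from that count. It was 0 without the replicate block, where 0 of 4999 probe sets passed as more positive and 7 as more negative. After quantile normalization it was also 0, beside 3 probe sets more positive and 1 more negative. Leaving out 1 sample changed the count in each fit.

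Nitrogen starvation, averaged over both strains and both temperatures, raised 6 of the 10 members and lowered 1. Those shares stand beside 33.9% of all probe sets called higher and 38.2% called lower, so that the total of 7 of 10 was near the 72.2% called overall. The rises were 4.48 ± 0.39 for zym1 (22.2-fold, adjusted p = 0.000199), 2.73 ± 0.35 for lsd90 (adjusted p = 0.000801), 2.51 ± 0.07 for cta3 (adjusted p = 1.73e-05), 1.27 ± 0.33 for ntp1 (adjusted p = 0.0155), 1.11 ± 0.26 for ctt1 (adjusted p = 0.00991) and 0.80 ± 0.27 for hsp9 (adjusted p = 0.0405). Each of these 6 was higher without nitrogen than in replicate 1 with nitrogen in 4 of 4 conditions. In fcp1-452 at 37 °C, replicate 2 with nitrogen lay above the starved sample for ctt1 (1.09 against 0.46) and lsd90 (2.92 against 2.72). The same held in wild type at 37 °C for hsp9 (0.28 against 0.24). The fall was trx2, by 1.44 ± 0.08 on the log2 scale (adjusted p = 5.32e-05), lower in 4 of 4 conditions. Not called were tps1 (0.41 ± 0.21, 95% interval -0.11 to 0.93), gpx1 (0.20 ± 0.15, interval -0.16 to 0.56) and gpd1 (-0.02 ± 0.13, interval -0.35 to 0.30). The member median was 0.96, against -0.03 over all probe sets. The 4 conditions include fcp1-452 at 37 °C, whose values with nitrogen were known when tps1, ntp1, zym1 and lsd90 were listed, so that the p-values of those 4 are not independent of the choice. The p-values of the other members rest in part on the same samples. These tests assume that the single samples without nitrogen vary like the samples with nitrogen, and with the replicate block they set the starved samples against replicate 1 alone. After quantile normalization zym1, cta3 and trx2 were called, with smaller values of 2.63 for zym1 and 1.21 for cta3, and the calls of lsd90 (1.18, adjusted p = 0.0685), ntp1 (0.74, adjusted p = 0.264), ctt1 (0.79, adjusted p = 0.134) and hsp9 (0.65, adjusted p = 0.270) were lost. With a pseudocount of 0.1 the value of zym1 was 3.38. The call of hsp9 was lost as well without the replicate block (0.62, adjusted p = 0.0931) and without either sample of fcp1-452 at 37 °C. The call of tps1 was gained without replicate 2 of wild type at 37 °C (adjusted p = 0.0245).

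**Figure D4:**
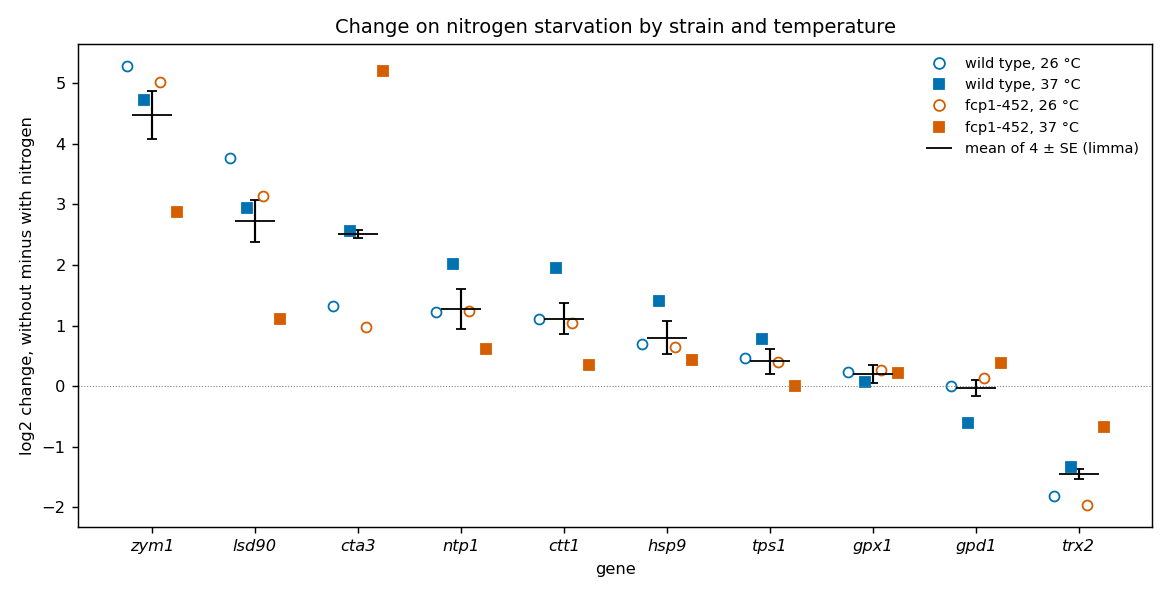
Log2 change without minus with nitrogen for each gene (horizontal axis), in single pairs of replicate 1 samples for each strain and temperature (symbols), with the mean of the 4 conditions ± SE from limma (black). In fcp1-452 at 37 °C the change is the smallest of the 4 for zym1, lsd90, ntp1, ctt1, hsp9 and tps1 and the largest for cta3 (5.20).

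Taken against the replicate 1 samples with nitrogen, the size of the starvation change depended on the condition for several members. For zym1 it was 5.29 in wild type at 26 °C, 5.02 in fcp1-452 at 26 °C, 4.72 in wild type at 37 °C and 2.88 in fcp1-452 at 37 °C, or 39.1-fold, 32.5-fold, 26.3-fold and 7.34-fold. For lsd90 it was 3.76, 3.13, 2.94 and 1.10 in the same order, and for cta3 1.32, 0.97, 2.55 and 5.20. The fall of trx2 was -1.81, -1.96, -1.34 and -0.67 in that order. In fcp1-452 at 37 °C the level with nitrogen was already high for zym1 and lsd90 and already low for trx2, as given above. Replicate 2 there stood at 4.15 for zym1 and 2.92 for lsd90, against starved samples at 4.51 and 2.72. The starved levels of zym1 spanned only 4.51 to 4.74 over the 4 conditions. For tps1 the change in fcp1-452 at 37 °C was 0.00, and for ntp1, ctt1 and hsp9 it was 0.61, 0.35 and 0.44, against 2.02, 1.96 and 1.41 in wild type at 37 °C. Those wild-type changes were taken against the replicate 1 sample with the low values described above.

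The dependence on temperature was taken over both strains by limma. It uses both replicates with nitrogen, so its values can differ from those of the single pairs above. Starvation raised cta3 more at 37 than at 26 °C, by 2.73 ± 0.12 (adjusted p = 0.000367), and by 1.68 after quantile normalization (adjusted p = 0.0342). It lowered trx2 less at 37 °C, with a difference of 0.91 ± 0.14 (adjusted p = 0.00775), a call lost without the replicate block (adjusted p = 0.0919) and after quantile normalization (adjusted p = 0.120). These values, and that of cta3 for strain given below, rest in part on the mutant samples at 37 °C with nitrogen. Their p-values may therefore not be independent of the choice of genes. For lsd90 and zym1 the values, which rest in part on the mutant samples known when the genes were listed, are a description: the change was smaller at 37 °C, by -2.18 ± 0.60 for lsd90 and -2.16 ± 0.68 for zym1. The value of zym1 was -3.04 after quantile normalization, and ran from -2.65 to -1.68 when 1 sample was left out. The count of members past the threshold was 3 of 10, with cta3, trx2 and lsd90, beside 36.9% of all probe sets. In that count lsd90 dropped out after quantile normalization, without the replicate block and without any 1 of 4 of the 8 samples with nitrogen, and zym1 entered after quantile normalization and in 3 of the 8 fits without 1 sample. The dependence on strain passed for cta3 alone, which rose by 1.18 ± 0.12 more in fcp1-452 (adjusted p = 0.0127), beside 17.4% of all probe sets. That call was lost without the replicate block, after quantile normalization and without any 1 of the 4 samples at 26 °C with nitrogen. Whether the response of cta3 in fcp1-452 at 37 °C exceeded the sum of both dependences was not tested.

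Among starved cells, fcp1-452 was higher than wild type, averaged over the temperatures, for cta3 (0.87 ± 0.10, adjusted p = 0.00379), gpd1 (0.86 ± 0.19, adjusted p = 0.0177) and gpx1 (0.71 ± 0.21, adjusted p = 0.0421). Each starved group held only 1 sample. The SE and p-values of all comparisons that use starved samples, here and elsewhere, thus rest on the spread of samples with nitrogen. The spread among starved samples was not measured. The call of gpx1 was lost without either fcp1-452 sample at 26 °C (adjusted p = 0.0643) and without either wild-type sample at 37 °C (adjusted p = 0.0667), all with nitrogen. None of the members was called lower. Of all probe sets 18.8% were called higher and 18.6% lower. At 26 °C the single starved samples of the strains differed by -0.29 for cta3, 0.12 for gpd1 and 0.11 for gpx1, and at 37 °C by 2.02, 1.61 and 1.32. At 37 °C the starved mutant was also higher for ntp1 (1.59), tps1 (1.53) and hsp9 (0.84), and close to wild type for lsd90 (0.25), ctt1 (0.18) and zym1 (-0.15). None of the 10 members was called after quantile normalization or without the replicate block. Of all 4999 probe sets, 0 were called higher and 0 lower after quantile normalization. Without the block 150 were called higher and 212 lower.

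Among starved cells the change from 26 to 37 °C, averaged over the strains, was called for cta3 (2.22 ± 0.10, adjusted p = 0.000342) and trx2 (0.57 ± 0.12, adjusted p = 0.0113), both higher at 37 °C, where 24.3% of all probe sets were called higher and 21.8% lower. The single samples gave 1.06 for cta3 in wild type and 3.38 in fcp1-452. For tps1 they gave -1.22 and 0.25, for gpd1 -0.93 and 0.56, and for gpx1 -0.35 and 0.86. For ntp1 they gave -0.73 and 0.79, and for hsp9 -0.35 and 0.39. Thus tps1, gpd1, gpx1, ntp1 and hsp9 had opposite signs in the strains, while cta3 was above 0 in both. Both strains were lower at 37 °C for lsd90 (-1.21 and -1.09) and ctt1 (-0.95 and -0.83), whose means were not called (adjusted p = 0.102 and 0.0955). The call of trx2 was lost without the replicate block (adjusted p = 0.123). After quantile normalization no member was called, and the value of cta3 was 1.03 (adjusted p = 0.189). In that fit 1 of 4999 probe sets was called higher and 0 lower.

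Over the 12 samples the correlations between members ranged widely, as a description of samples that share replicates and conditions. The highest was that of ntp1 with hsp9 (r = 0.98), followed by zym1 with lsd90 (r = 0.95). The lowest positive ones were those of cta3 with gpx1 (r = 0.17) and tps1 with cta3 (r = 0.18). All 9 correlations of trx2 were negative, from -0.94 with lsd90 to -0.32 with gpd1. Outside the list, the 5 named genes closest to the mean of the 10 members over these samples were pbi2 (r = 0.98), spd1 (r = 0.96), vip1 (r = 0.95), mek1 (r = 0.95) and oca2 (r = 0.94).

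Other genes of the same roles were read from 4 lists of 53 genes, of which 45 were matched to a probe set by name. On starvation, redox defence rose in 5 of 17 genes and fell in 6, with a median of 0.11 against -0.03 over all probe sets, of which 33.9% rose and 38.2% fell. The rises were led by the glutathione S-transferase genes gst3 (0.98 ± 0.09) and gst2 (0.76 ± 0.13), and the falls by the thioredoxin-like gene txl1 (-1.56 ± 0.11) and the glutaredoxin gene grx5 (-1.13 ± 0.09). These means did not hold in every condition. In fcp1-452 at 37 °C gst2 was lower without nitrogen (-0.85) than with it (0.20 and -0.50), but it rose in every other condition. Its starvation change differed between the strains by -1.49 ± 0.22. In fcp1-452 at 37 °C grx5 stood at 0.15 without nitrogen and at 0.11 and -0.12 with it, but it fell in every other condition. The trehalose and glycerol list rose in 4 of 6 and fell in 1, with a median of 0.64. Its largest rises were dak2, a dihydroxyacetone kinase gene (2.93), and gld1, a glycerol dehydrogenase gene (2.17), both of glycerol breakdown, and gpd2 fell by 0.41. In fcp1-452 at 37 °C, however, gpd2 was higher without nitrogen (-0.40) than with it (-0.74 and -1.30). Metal and ion handling rose in 7 of 15 and fell in 1 (median 0.14), with the potassium transporter gene trk2 at 1.04 ± 0.10, the P-type ATPase gene cta4 at 0.97 ± 0.10 and the zinc transporter gene zrg17 at -0.86 ± 0.14. The remaining stress-induced genes rose in 2 of 7 and fell in 1 (median 0.16), with ish1 at 1.60 ± 0.35, the fructose-1,6-bisphosphatase gene fbp1 at 0.65 ± 0.13 and obr1 at -0.30 ± 0.08. In fcp1-452 at 37 °C fbp1 was lower without nitrogen (0.87) than with it (1.60 and 1.28), but it rose in every other condition. Its starvation change differed between the strains by -1.37 ± 0.22. In wild type at 37 °C obr1 was higher without nitrogen (0.14) than with it (-0.25 and -0.60), but it fell in every other condition.

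For the strain difference at 37 °C with nitrogen, 2 of 17 redox genes were higher and 2 lower (median 0.07, against -0.04 for the whole array, where 14.7% of probe sets passed as higher and 19.2% as lower). Of the trehalose and glycerol list 2 of 6 genes were higher and 2 lower (median 0.32), and of metal and ion handling 4 of 15 were higher and 1 lower (median 0.19). Of the remaining stress-induced genes 3 of 7 were higher and none lower (median 0.79). The trehalose-6-phosphate phosphatase gene tpp1, which completes trehalose synthesis, was higher by 0.53, beside 1.92 for tps1. The largest difference among the listed genes was that of ish1, at 1.94. Its 2 wild-type samples at 37 °C were at -1.14 and -1.13, below those at 26 °C (0.14 and -0.08), and its mutant samples at 37 °C were at -0.07 and 1.68.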

How the data were processed

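The authors deposited linear ratios for 16 arrays. Robust multi-array averaging (RMA) is named per the submitters' processing notes, with no version. In the deposited ratios every probe set has a median of 1 within each set of 8 arrays, to within 0.0002, so no expression level or signal over background was kept, and a filter on low values could not be made. Arrays were grouped by title. For every probe set, log2 ratios of set 1 were shifted by the mean gap between the sets in the 4 duplicate pairs, and duplicates were then averaged. The number of arrays limits the precision.

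Over the 12 samples, limma 3.58.1 (R 4.3.3) was run with 8 group means and the replicate number as a block (3 residual degrees of freedom, prior 2.75), for 10 comparisons. The block was used because the difference between replicates correlated between all 6 pairs of groups (r = 0.640 to 0.870) and because set 1 and replicate 1 are the same samples. The fit was tested on simulated data. Genes were named through the platform annotation (2917 probe sets with 1 gene, 20 with several, 2062 unnamed here) and RefSeq assembly ASM294v3 (2914 matched). All 10 members are named. From each list, at most 2 called genes in each direction are named, and 5 genes by likeness. The members, lists and comparisons were chosen with earlier results of these data known. A planned search of promoters for motifs was not made, and no sequences were used here.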

Additional observations from a re-analysis of the deposited data

Results flagged for a closer look

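Results in which 2 strains or 2 temperatures differed under the same contrast were as follows, with no test of an explanation. In the strain by temperature comparison with nitrogen the difference was 1.87 for tps1, -0.72 for cta3 and -0.77 for trx2, given as a description because the members were listed with the mutant's values at 37 °C known. In starvation by temperature the difference passed the threshold for cta3 (2.73) and trx2 (0.91), and in starvation by strain for cta3 (1.18). These starvation values rest in part on those mutant samples, so their calls may not be independent of the choice of genes. The value for lsd90 in starvation by temperature, -2.18, does so too and is a description. For gpd1, against replicate 1 with nitrogen, starvation gave values below 0 in both wild-type conditions (0.00 after rounding at 26 °C and -0.61 at 37 °C) and above 0 in both mutant conditions (0.13 and 0.39). Replicate 2 of wild type at 26 °C with nitrogen was at -0.32, below the starved sample at 0.33, so that sign depends on the replicate. The difference of gpd1 between the strains, 0.71, was tested and did not pass (adjusted p = 0.0838 by limma). No group held 4 or more samples, so single samples were not screened as outliers.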

How the results depend on the processing

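The 33 called values of members kept their direction under all 12 alternatives (396 values). They include comparisons of the mutant at 37 °C with nitrogen, whose counts are descriptions only. Part of this agreement was fixed in advance. Without the replicate block, the values of every comparison except the mean starvation change were unchanged. The mean starvation change was itself unchanged in the 16 arrays with a set term and without any sample of replicate 2. Leaving out a sample that a comparison does not use also left its value unchanged. Counts of called members often changed, and the cause was not tested. Without the replicate block the counts were 1 of 10 for 37 °C in fcp1-452, 4 for the strain difference at 37 °C with nitrogen, 0 for strain by temperature, 0 for starvation by strain, 1 for starvation by temperature, 0 for the strain difference without nitrogen and 1 for 37 °C without nitrogen. In the same order 232, 129, 0, 1, 180, 150 and 406 of 4999 probe sets were called higher. Called lower were 361, 211, 7, 0, 145, 212 and 403. Quantile normalization, which makes arrays of unequal spread alike, gave 1 for 37 °C in wild type, 3 in fcp1-452, 0 for strain by temperature, 3 for starvation, 0 for starvation by strain, 0 for the strain difference without nitrogen and 0 for 37 °C without nitrogen. In that order 298, 671, 3, 863, 0, 0 and 1 of 4999 probe sets were called higher, and 232, 609, 1, 1007, 0, 0 and 0 lower. The 16 arrays with a set term gave 2 for 37 °C in wild type and 5 for strain by temperature. Beside these, 182 and 377 of 4999 probe sets were called higher and 114 and 556 lower. A pseudocount of 0.1 moved no count by over 1.5 times. Leaving out 1 sample at a time gave 0 in each fit for 37 °C in wild type and for the strains at 26 °C, 1 to 7 for 37 °C in fcp1-452, 3 to 8 for the strains at 37 °C, 0 to 6 for strain by temperature, 6 to 8 for starvation, 0 to 4 for starvation by strain, 2 to 4 for starvation by temperature, and 2 to 4 for each comparison without nitrogen; the 4 came without either fcp1-452 sample at 37 °C for temperature, and without either wild-type one for strain. Samples without nitrogen are single, so none was left out.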
